A study of Mus musculus with 18 samples.

Results

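The genes described here are 10 that encode catalytic subunits of the pyruvate dehydrogenase complex and the enzymes that switch it off and on. They were found by symbol, with 1 row each among the 55487 genes of the count file. They are *Pdk1*, *Pdk2*, *Pdk3* and *Pdk4* (the pyruvate dehydrogenase kinases, PDKs), *Pdp1* and *Pdp2* (the catalytic subunits of the pyruvate dehydrogenase phosphatases, PDPs), *Pdha1* and *Pdhb* (the alpha and beta subunits of the first enzyme, E1), *Dlat* (the second enzyme, E2) and *Dld* (the third enzyme, E3).

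The study asked what *Hif1a*, which encodes the oxygen-regulated subunit of the transcription factor HIF-1, does in tendon. RNA was sequenced from tail tendon fibroblasts (TFs) of 4- to 6-month-old mice after 4 days in 20% or 1% O2, in 18 libraries with 3 per group. Ctrl TFs (wild-type in the labels, from Cre-negative mice in the study's methods) were kept in 20% O2 or in 1% O2. TFs labelled cKO (*Hif1a* knockout) came from mice whose floxed *Hif1a* is cut by a Cre that the *Scx* promoter drives in cells of the tendon lineage, and they were kept at the same O2 levels. Ctrl TFs with Cre gesicles, vesicles that carry Cre protein into cells, were also kept in 20% O2 or in 1% O2. All TFs had grown out of collagen gels and had been passaged before they were seeded. The study's methods define Cre-negative Ctrl mice as *Hif1a* flox/flox, while the labels call the Ctrl cells wild-type. By those methods Ctrl TFs would carry floxed *Hif1a*. The methods do not describe the gesicle treatment, so the allele of the gesicle-treated cells is not stated directly.

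The pyruvate dehydrogenase complex sits in the mitochondrial matrix and turns pyruvate, the end product of glycolysis, into acetyl-CoA for the citric acid cycle. PDKs phosphorylate the E1 alpha subunit and so stop the complex, and PDPs take the phosphate off again. *Pdk1* is a textbook HIF-1 target, and in many cell types its product diverts pyruvate from the mitochondria to lactate when O2 is low. *Pdk4* is best known for rising during fasting.

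Library totals ran from 6857558 counts (the first library labelled cKO in 1% O2, which stood apart in depth) to 51806453. All 8 tendon fibroblast markers were above 1 CPM (the usual scaling of counts to library size) on average in every group, and the 5 adipocyte and 4 keratinocyte markers summed to at most 6.97 and 0.498 CPM in any library. Of 7 skeletal muscle markers, 5 or 6 were at 0 in every library of a group, and *Acta1*, skeletal muscle actin, made up nearly the whole sum of the rest. *Acta1* had means of 12.6 ± 2.94 CPM in normoxic TFs labelled cKO and 30.6 ± 10.1 CPM in normoxic Ctrl TFs (SD, n = 3) without overlap, and it was called lower there by edgeR and DESeq2 (log2 difference -1.28, SE 0.24, adjusted p = 0.0449, edgeR). DESeq2 also called *Acta1* and the tendon marker *Fmod* between O2 levels with gesicles, where edgeR's adjusted p were 0.0942 and 0.0957. Of 4 endothelial markers only 1, *Tek*, was above 1 CPM, so their sum mostly reflects that gene. The sum had medians of 38.4 CPM in normoxic and 19.1 CPM in hypoxic Ctrl TFs. These medians were 48.0 and 29.2 CPM under the label cKO and 33.1 and 18.1 CPM with gesicles. Neither edgeR nor DESeq2 called *Tek* between O2 levels. The tendon fibroblast markers had their lowest median sum, 5896 CPM, in hypoxic TFs labelled cKO. Such a sum gives most weight to the most abundant genes. Of these 8 markers only *Col1a1* had an unadjusted p under 0.05 between genotypes at either O2 level (edgeR), against 14.3% of all genes in 20% O2 and 16.8% in 1% O2. Neither edgeR nor DESeq2 called any of the 8 there. The part of these shifts in the results was not tested. In bulk RNA, fewer cells of a type and less RNA per cell cannot be told apart. *Hif1a* itself, counted over the whole gene, did not separate the genotypes. Its difference, cKO minus Ctrl, was 0.11 on the log2 scale at 20% O2 (standard error (SE) 0.16, adjusted p = 0.757) and 0.08 at 1% O2 (SE 0.16, adjusted p = 0.819). With gesicles against without, it was 0.06 at 20% O2 and -0.13 at 1% O2 (both adjusted p = 1, edgeR's quasi-likelihood test). Counts over the whole gene cannot show the loss of a floxed part, so they check neither label. Transcripts of *cre* were found in 5 of 6 libraries labelled cKO, with 1 to 5 counts each, and in none of the other 12. By *Xist* and *Ddx3y*, the Ctrl libraries at each O2 level came from 1 male and 2 females and those labelled cKO from 2 males and 1 female.

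*Pdk1* was the member that moved. Its level, in CPM normalised by the trimmed mean of M-values (TMM), was 14.4, 17.5 and 15.1 in Ctrl TFs in 20% O2 and 95.8, 99.4 and 96.5 in 1% O2. The 3 hypoxic libraries lay close together and far above the normoxic ones. The rise was 6.23-fold (log2 fold change 2.64, SE 0.18, adjusted p = 1.56e-05), which placed *Pdk1* as number 5 of 15850 genes by p. It was called in edgeR's quasi-likelihood test at a Benjamini-Hochberg adjusted p under 0.05 with a fold change of at least 1.5. By that rule 1 of 10 members was called, against 1.88% of all genes tested.

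The same gene rose in the other 2 cultures. In TFs labelled cKO, *Pdk1* stood at 20.5, 12.04 and 14.98 CPM in 20% O2 and at 66.7, 54.5 and 67.8 CPM in 1% O2. That is a 4.0-fold rise (log2 fold change 2.0, SE 0.18, adjusted p = 2.44e-04, edgeR), and 1 of 10 members was called against 2.10% of all genes. Without the shallow library the *Pdk1* value was 1.97 (SE 0.20, adjusted p = 0.00168). In gesicle-treated Ctrl TFs, *Pdk1* stood at 12.3, 15.2 and 11.9 CPM in 20% O2 and at 57.8, 68.6 and 46.0 CPM in 1% O2. The rise was 4.38-fold (log2 fold change 2.13, SE 0.19, adjusted p = 1.53e-05, edgeR), again with 1 of 10 members called, against 2.41% of all genes.

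**Figure D1:**
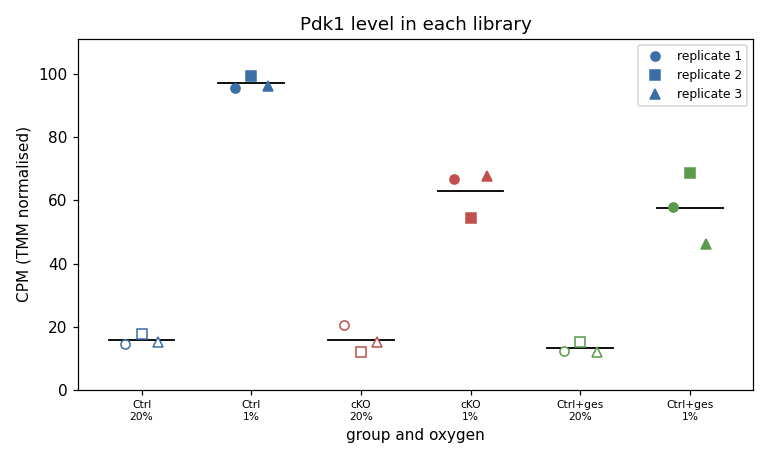
Level of *Pdk1* in each library (y axis, CPM normalised by TMM, from 0) for the 6 groups (x axis, culture and O2 level). Symbols mark replicates 1 to 3, open for 20% O2 and filled for 1% O2, and the horizontal bars are group means. The hypoxic Ctrl libraries lie between 95.8 and 99.4 CPM, above all hypoxic libraries labelled cKO or treated with gesicles, which lie between 46.0 and 68.6 CPM.

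The study's design asks whether this response depends on *Hif1a*. In 20% O2 the *Pdk1* levels of the 3 cultures overlapped, with means of 15.7 CPM in Ctrl TFs, 15.9 CPM in those labelled cKO and 13.1 CPM with gesicles. In 1% O2 the means were 97.2 ± 1.89, 63.0 ± 7.38 and 57.5 ± 11.3 CPM (SD, n = 3), and neither of the lower groups overlapped the Ctrl group. Against Ctrl TFs in 1% O2, the log2 difference was -0.63 for the label cKO (SE 0.17, unadjusted p = 0.00316, adjusted p = 0.204, edgeR) and -0.76 for gesicles (SE 0.18, unadjusted p = 7.14e-04, adjusted p = 1, edgeR). Neither was called. Both comparisons use the same 3 Ctrl libraries, so they are not independent of each other.

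The direct test of a difference between the responses was not called either. The *Pdk1* response to low O2 in TFs labelled cKO, minus that in Ctrl TFs, was -0.64 on the log2 scale (SE 0.24, unadjusted p = 0.0227, adjusted p = 1, edgeR). With gesicles this difference between responses was -0.50 (SE 0.26, unadjusted p = 0.0695, adjusted p = 1, edgeR). DESeq2 called *Pdk1* in 1 of these comparisons, the label cKO against Ctrl in 1% O2, with a log2 difference of -0.62 and an adjusted p of 0.047, and its adjusted p was 0.0659 with the replicate block. Without the shallow library the edgeR value was -0.66 (adjusted p = 0.422), and with *Xist* as a covariate for sex it was -0.55 (adjusted p = 0.205). In edgeR 0 of 10 members were called for cKO against Ctrl in 1% O2, where 0.0379% of all genes were called. An unadjusted p under 0.05 was found for 3 members, *Pdk1*, *Pdp1* and *Pdp2*, and for 2658 of 15850 genes.

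The *Pdk1* gene lies on chromosome 2 of GRCm38 from 71873224 to 71903858 on the plus strand. The 250 bases before its RefSeq start (GRCm38.p6, chr2:71872974-71873223, plus strand) are shown because HIF binds to short sites in promoters, written here as ACGTG or GCGTG on either strand. The capitals mark the match.
*Pdk1* upstream of the start: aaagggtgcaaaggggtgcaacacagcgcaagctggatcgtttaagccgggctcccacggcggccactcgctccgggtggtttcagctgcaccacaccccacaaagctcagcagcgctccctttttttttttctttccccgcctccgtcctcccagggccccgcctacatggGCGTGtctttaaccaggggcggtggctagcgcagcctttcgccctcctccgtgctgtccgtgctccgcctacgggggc
The stretch holds 1 match, GCGTG on the gene's own strand, whose first base is at -78 from the start. A second RefSeq start of *Pdk1* had 0 matches in its 250 bases. Of all 32851 promoters of this length, 38.6% held at least 1 match, and so did 7 of the 11 member promoters, which belong to 9 of the members. *Pdk3* had 4 matches, a number reached by 2.58% of promoters, and *Pdk4* had 1. The 2 matches of *Pdk2* are both strands of 1 CACGTG, as are those of *Pdp2*, while *Dlat* and *Dld* had 0. A match to so short a motif is a description of the sequence only. No binding data were analysed here.

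Over the 18 libraries, the genes whose log2 CPM followed *Pdk1* most closely were *Slc16a3* (Pearson r = 0.984), *Pfkl* (r = 0.981) and *Ak4* (r = 0.978), of 16174 genes. *Slc16a3* encodes the lactate exporter MCT4, *Pfkl* the liver-type subunit of phosphofructokinase and *Ak4* a mitochondrial adenylate kinase. The 18 libraries fall into hypoxic and normoxic sets, so these values mostly describe that split.

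The other 9 members were not called in low O2 in any culture. *Pdk3*, the isoform with the highest transcript level per kb of exon here, showed the steadiest of these smaller differences. In Ctrl TFs it stood at 55.1, 53.8 and 47.0 CPM in 20% O2 and at 72.9, 66.1 and 67.8 CPM in 1% O2. In TFs labelled cKO it stood at 52.2, 49.6 and 57.8 CPM in 20% O2 and at 70.3, 65.4 and 78.1 CPM in 1% O2. The groups did not overlap in either culture, and the log2 differences were 0.41 (SE 0.12, adjusted p = 0.0988, edgeR) and 0.43 (SE 0.12, adjusted p = 0.0775, edgeR). DESeq2 gave adjusted p of 0.0279 and 0.0101 for these, but both lay under the fold minimum. With gesicles the *Pdk3* groups overlapped, from 51.6 to 68.5 CPM in 20% O2 and from 63.5 to 75.0 CPM in 1% O2, and the log2 difference was 0.21 (SE 0.12, adjusted p = 0.387, edgeR).

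*Pdk4*, the kinase tied to fatty acid use, differed widely between replicates of Ctrl and gesicle-treated TFs. Ctrl TFs had 15.7, 21.8 and 28.5 CPM in 20% O2 and 14.4, 39.3 and 44.8 CPM in 1% O2. The first library was the lowest at both O2 levels, and the first gesicle-treated library was the lowest of its groups too, at 15.3 and 23.8 CPM. By *Xist* and *Ddx3y* these first libraries were the only male ones of their groups. Libraries of the same number may come from the same mouse, so they may not be separate instances. The other gesicle-treated libraries had 20.4 and 24.8 CPM in 20% O2 and 43.5 and 38.0 CPM in 1% O2. TFs labelled cKO had 24.6, 26.4 and 24.1 CPM in 20% O2 and 31.2, 43.9 and 34.2 CPM in 1% O2, without overlap. There the first library was the only female one at each O2 level. It was not the highest in 20% O2 and was the lowest in 1% O2, unlike the female libraries of the other cultures. The *Pdk4* log2 differences were 0.59 in Ctrl TFs (SE 0.34, adjusted p = 0.432), 0.55 under the label cKO (SE 0.34, adjusted p = 0.383) and 0.80 with gesicles (SE 0.34, adjusted p = 0.229) in edgeR. Left out singly, the first hypoxic Ctrl library moved the Ctrl value to 0.94 (SE 0.22, adjusted p = 0.0893), still not called. DESeq2 with the replicate block called *Pdk4* with gesicles (log2 0.78, adjusted p = 0.0364). Between genotypes, the *Pdk4* log2 difference, cKO minus Ctrl, was 0.18 at 20% O2 and 0.15 at 1% O2 (edgeR). With *Xist* as a covariate for sex these differences were 0.39 (SE 0.33) and 0.41 (SE 0.34). None of them was called, and the part of sex in the spread was not tested.

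*Pdk2*, which is expressed in most tissues, kept to a narrow band. Its libraries ran from 34.0 to 38.1 CPM in normoxic and from 32.0 to 42.8 CPM in hypoxic Ctrl TFs, and the groups overlapped in all 3 cultures. Its difference between O2 levels was beyond 1 SE of 0 with gesicles only, at 0.36 on the log2 scale (SE 0.14, adjusted p = 0.176, edgeR).

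**Figure D2:**
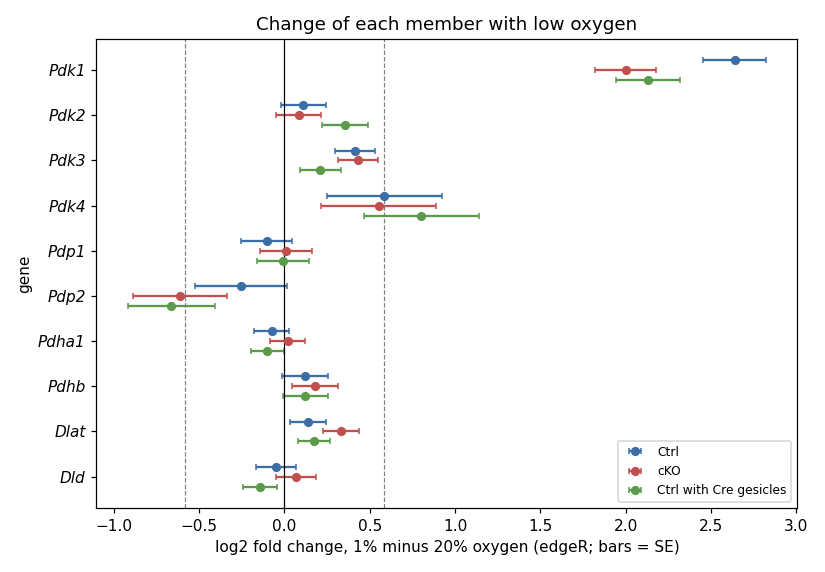
Log2 fold change of each member between 1% and 20% O2 (x axis, edgeR, positive when higher in 1% O2, error bars are SE) for the 10 genes (y axis), in Ctrl TFs (blue), TFs labelled cKO (red) and gesicle-treated Ctrl TFs (green). Dashed lines mark a 1.5-fold change. *Pdk1* lies between 2.0 and 2.64, and the other members lie between -0.66 and 0.80.

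Neither phosphatase was called. *Pdp2* was the member with the lowest level, and its mean was lower in 1% O2 in each culture. In gesicle-treated TFs it stood at 6.56, 6.995 and 7.32 CPM in 20% O2 and at 5.57, 4.17 and 3.43 CPM in 1% O2, without overlap. The log2 difference there was -0.66 (SE 0.25, adjusted p = 0.177, edgeR). In TFs labelled cKO *Pdp2* stood at 6.63, 3.29 and 5.83 CPM in 20% O2 and at 2.99, 3.94 and 3.18 CPM in 1% O2, with a log2 difference of -0.61 (SE 0.28, adjusted p = 0.246, edgeR). The second of those normoxic libraries fell among the hypoxic ones, and without it *Pdp2* was called at -0.85 (adjusted p = 0.0424, edgeR). With each library left out singly, the value ran from -0.85 to -0.42 and the adjusted p from 0.0424 to 0.531 (edgeR). The share of all genes called without that library is not given here, and nothing is read from the call. The shallow hypoxic library held 21 counts of *Pdp2*. Ctrl TFs ran from 4.52 to 7.45 CPM in 20% O2 and from 4.89 to 5.31 CPM in 1% O2, and these ranges overlapped. *Pdp1*, the calcium-sensitive phosphatase, overlapped between O2 levels in all 3 cultures, with means of 48.5 and 44.9 CPM in normoxic and hypoxic Ctrl TFs.

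The enzymes of the complex themselves were not called in any comparison. *Pdha1*, the target of the kinases, had means from 319 to 345 CPM over the 6 groups, and its groups overlapped in every comparison. Its means in Ctrl TFs were 345 ± 10.8 CPM in 20% O2 and 326 ± 28.0 CPM in 1% O2 (SD, n = 3). *Pdhb* had means from 79.2 to 94.0 CPM. *Dld*, the E3 enzyme that other 2-oxoacid dehydrogenases share, had means from 153 to 172 CPM, and with gesicles its 3 hypoxic libraries, 150 to 162 CPM, lay just under the normoxic ones, 163 to 187 CPM.

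*Dlat* was the subunit with the clearest separation, which was seen under the label cKO only. In TFs labelled cKO it stood at 115, 102 and 125 CPM in 20% O2 and at 142, 143 and 142 CPM in 1% O2. The difference was 0.33 on the log2 scale (SE 0.11, adjusted p = 0.123, edgeR). In normoxia the TFs labelled cKO also lay below the Ctrl libraries, which had 144, 132 and 141 CPM, by a log2 difference of -0.29 (SE 0.11, adjusted p = 0.278, edgeR). *Dlat* was not called in either. DESeq2 gave an adjusted p of 0.0402 for the difference between O2 levels in TFs labelled cKO (0.0236 with the replicate block), under the fold minimum. In Ctrl TFs *Dlat* overlapped between O2 levels, with 132 to 144 CPM in 20% O2 and 140 to 161 CPM in 1% O2. With gesicles it overlapped too, with 124.5 to 144.4 CPM in 20% O2 and 143.9 to 156.9 CPM in 1% O2. In hypoxia *Dlat* overlapped between genotypes. *Acta1* differed between the genotypes in the same normoxic libraries, and the part of that shift was not tested.

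**Figure D3:**
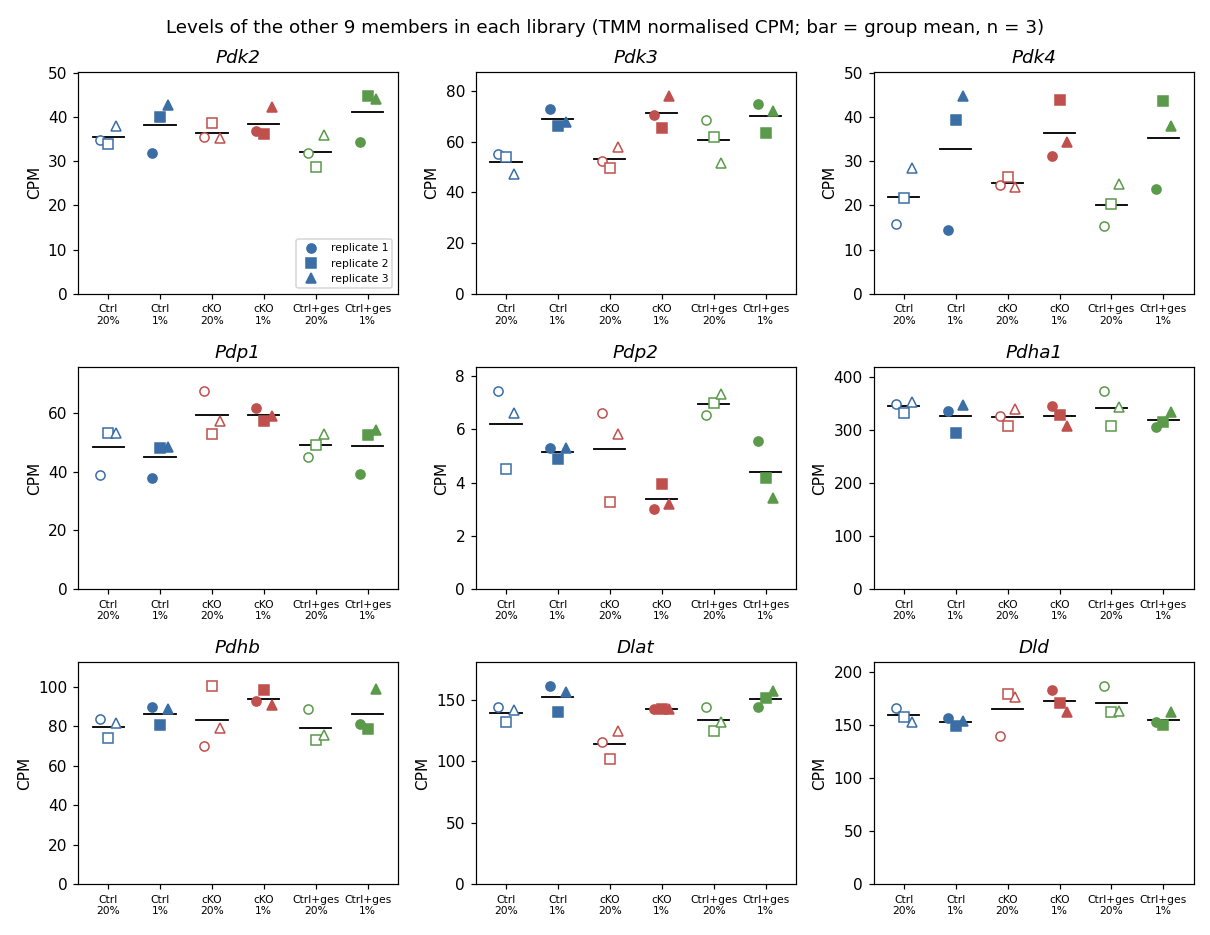
Levels of the 9 members other than *Pdk1* in each library (y axes, CPM normalised by TMM, from 0, with a scale of its own in each panel) for the 6 groups (x axes). Symbols mark replicates 1 to 3, open for 20% O2 and filled for 1% O2, and the bars are group means. *Pdk4* spreads from 14.4 to 44.8 CPM with replicate 1 lowest in the Ctrl and gesicle-treated groups, while *Pdha1* stays between 295 and 374 CPM.

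The members whose groups did not overlap can be counted against the same count over all genes. Between O2 levels there were 2 of 10 in Ctrl TFs, where 30.0% of all genes did not overlap. There were 4 of 10 in TFs labelled cKO (20.6% of all genes) and 3 of 10 with gesicles (24.0% of all genes). Between the label cKO and Ctrl there was 1 of 10 in 20% O2 (21.2% of all genes) and there were 5 of 10 in 1% O2 (27.3% of all genes). With gesicles against none, there were 0 of 10 in 20% O2 (12.5% of all genes) and 1 of 10 in 1% O2 (6.32% of all genes). Each member is 10% of the list, and nothing is read from these shares.

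The 5 members that did not overlap between genotypes in 1% O2 lay in both directions. *Pdk1* and *Pdp2* were lower under the label cKO in 1% O2, *Pdp2* by a log2 difference of -0.61 (SE 0.28, adjusted p = 0.296, edgeR). *Pdp1* was higher, with 61.7, 57.4 and 59.0 CPM against 38.0, 48.1 and 48.7 CPM, a log2 difference of 0.40 (SE 0.15, adjusted p = 0.247, edgeR). The Ctrl library at 38.0 CPM was the male one. With *Xist* as a covariate for sex the *Pdp1* difference was 0.51 (SE 0.11, adjusted p = 0.133, edgeR). *Pdhb* and *Dld* were also higher, but by means of 94.0 against 86.5 CPM and 172 against 153 CPM. None of these was called.

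The remaining comparisons called no member. For the label cKO against Ctrl in 20% O2, edgeR and DESeq2 each called 0 of 10 members, and 0.347% of all genes were called. An unadjusted p under 0.05 was found for 1 member, *Dlat*, and for 2264 of 15850 genes. For gesicles against none in 20% O2, both tools called 0 of 10 members, 0 members and 594 of 16174 genes had an unadjusted p under 0.05, and edgeR called 0.0247% of all genes. In 1% O2, both tools called 0 of 10 members and edgeR called 0% of all genes, while *Pdk1* and 324 genes in all had such a p. In the genotype interaction, both tools called 0 members and edgeR called 0% of all genes, while *Pdk1* and 367 genes in all had such a p. In the gesicle interaction the counts were 0 members by both tools, 0% of all genes by edgeR, and 0 members and 243 genes with such a p. Gesicle-treated and untreated Ctrl TFs in 20% O2 differed by at most 0.26 on the log2 scale in any member, the value of *Pdk1*, which was lower with gesicles (SE 0.18, adjusted p = 1, edgeR).

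Levels of different genes were compared per kb of exon, as CPM per kb. In Ctrl TFs in 20% O2 the order was *Pdha1* (92.4 ± 2.89), *Dld* (43.2 ± 1.90), *Dlat* (28.5 ± 1.33), *Pdhb* (20.7 ± 1.28), *Pdk3* (20.3 ± 1.69), *Pdk2* (11.3 ± 0.693), *Pdp1* (10.8 ± 1.82), *Pdk4* (6.26 ± 1.83), *Pdk1* (2.02 ± 0.211) and *Pdp2* (1.09 ± 0.265; SD, n = 3). Neighbours in this order did not overlap except *Pdhb* with *Pdk3* and *Pdk2* with *Pdp1*. In 1% O2 *Pdk1* moved up to the sixth place with 12.5 ± 0.243, where it overlapped *Pdk2* (12.1 ± 1.79). It was next to last in hypoxic TFs labelled cKO (8.10 CPM per kb) and with gesicles (7.39 CPM per kb). The order depends on the length used, which puts *Pdk1* above *Pdk4* in both of these groups when it is that of the principal transcript. With the longest principal transcript of each gene in place of all its exons, *Pdhb* came before *Dlat* in normoxic Ctrl TFs at 52.8 against 34.5 CPM per kb.

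Within the kinases, *Pdk1* took a larger share of the summed PDK level in low O2. In Ctrl TFs its share per kb of exon went from 5.06% ± 0.477 to 20.6% ± 1.69 (SD, n = 3). It went from 4.91% ± 1.34 to 13.8% ± 1.38 in TFs labelled cKO and from 4.09% ± 0.585 to 12.8% ± 2.41 with gesicles. The hypoxic Ctrl libraries, 19.0% to 22.4%, lay above all others. *Pdk3* kept the largest share in every group, with means from 44.6% to 57.2%. The share of *Pdk2* was 28.3% and 19.8% in normoxic and hypoxic Ctrl TFs, and that of *Pdk4* had means from 14.0% to 17.8% over all groups. With the principal transcript's length the *Pdk1* share in Ctrl TFs was 6.07% and 24.2%, and with no length correction it was 12.5% and 41.1%. With no length correction *Pdk1* then passed *Pdk3*, at 29.3%, in hypoxic Ctrl TFs.

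The sum of the 4 kinase levels per kb of exon was higher in 1% O2 in every culture. It was 39.8 ± 0.874 and 60.9 ± 5.27 CPM per kb in Ctrl TFs, 41.5 ± 0.965 and 58.5 ± 3.33 under the label cKO, and 41.3 ± 1.39 and 57.8 ± 3.04 with gesicles (SD, n = 3). Hypoxic and normoxic libraries did not overlap. The summed phosphatase level had means of 11.9 and 10.9 CPM per kb in normoxic and hypoxic Ctrl TFs. The ratio of kinase to phosphatase transcripts was 3.40 ± 0.429 and 5.61 ± 0.234 in Ctrl TFs, 2.98 ± 0.386 and 4.25 ± 0.297 under the label cKO, and 3.43 ± 0.394 and 5.04 ± 0.492 with gesicles. All 3 hypoxic libraries labelled cKO, at 3.98 to 4.57, lay below the hypoxic Ctrl libraries, at 5.41 to 5.87. These sums and ratios contain *Pdk1* and are given without a test, and they count transcripts, not enzyme activity.

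**Figure D4:**
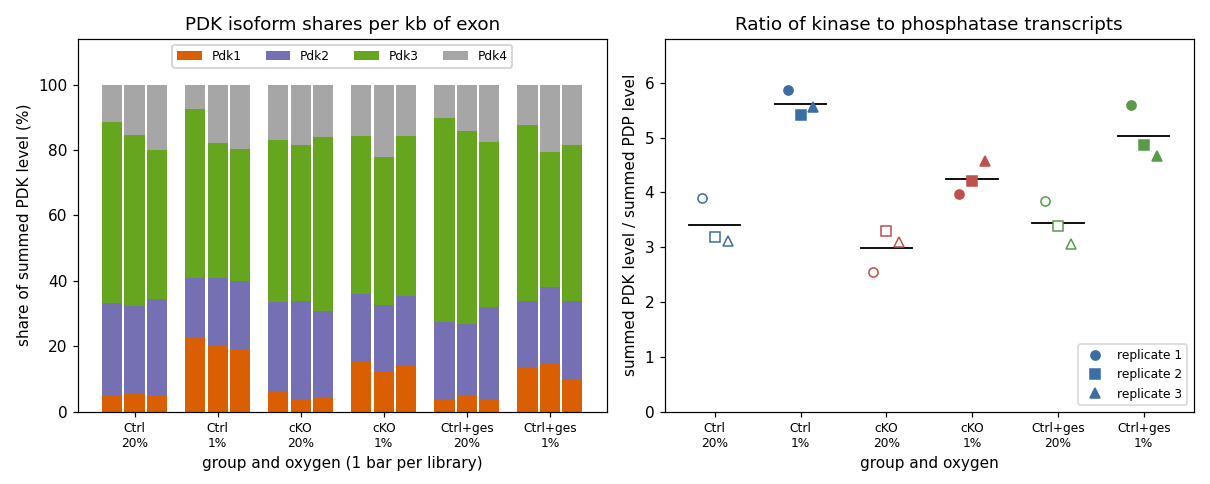
Left, share of each PDK isoform in the summed PDK level per kb of exon (y axis, percent) with 1 stacked bar per library in the order of replicates 1 to 3 (x axis, culture and O2 level). Right, ratio of summed PDK to summed PDP level per kb of exon in each library (y axis, from 0), with group means as bars. The orange share of *Pdk1* is largest in hypoxic Ctrl TFs at 20.6% on average, and the ratio is highest there at 5.61 on average.

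Around the complex, 2 genes of pyruvate handling rose with *Pdk1*. *Ldha*, whose product reduces pyruvate to lactate, went from 644 ± 48.4 to 2172 ± 367 CPM in Ctrl TFs (log2 fold change 1.76, SE 0.19, adjusted p = 4.32e-04, edgeR). Its rise was 1.19 under the label cKO (adjusted p = 0.00734) and 1.17 with gesicles (adjusted p = 0.00115, edgeR), from 743 to 1689 and from 685 to 1548 CPM. *Me1*, the cytosolic malic enzyme that makes pyruvate from malate, rose past the fold minimum under the label cKO (0.62, SE 0.12, adjusted p = 0.0254, edgeR). It passed the p threshold but not the fold minimum in Ctrl TFs (0.55, adjusted p = 0.0402) and with gesicles (0.52, adjusted p = 0.0241, edgeR). Of the 10 genes listed for pyruvate entry and other fates, edgeR called 1 in Ctrl TFs, 2 under the label cKO and 1 with gesicles, all of them higher. The shares over all genes were 1.88%, 2.10% and 2.41%. *Me3*, a mitochondrial malic enzyme, had a log2 difference of -0.86 in Ctrl TFs (SE 0.34, adjusted p = 0.24, edgeR).

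The enzymes downstream of the complex were not called. Of 15 citric acid cycle genes, edgeR and DESeq2 called 0 in low O2 in any of the 3 cultures, and 1 had an unadjusted p under 0.05, *Suclg2* with gesicles. Over all genes, such a p was found for 2546 of 15850 in Ctrl TFs (16.1%), for 3141 of 15850 under the label cKO (19.8%) and for 2805 of 16174 with gesicles (17.3%). Their log2 differences in Ctrl TFs ran from -0.13 to 0.20, with a median of -0.03. The furthest from 0 were *Sdhd*, a subunit of succinate dehydrogenase (0.20, SE 0.17), and *Idh2*, the mitochondrial isocitrate dehydrogenase that makes NADPH (0.15, SE 0.14). Of 8 genes for the sister 2-oxoacid dehydrogenases, both tools called 0 and 0 had an unadjusted p under 0.05 in Ctrl TFs (1, *Dlst*, under the label cKO and with gesicles) between O2 levels, with *Bckdhb* at -0.31 (SE 0.20) and *Ogdhl* at -0.25 (SE 0.21) in Ctrl TFs. Of 5 genes for partners of the complex and lipoylation, both tools called 0 and 0 had such a p between O2 levels in any culture, with *Pdpr*, the regulatory subunit of the phosphatase, at -0.58 (SE 0.36) and *Lipt2* at 0.21 (SE 0.22). For all genes tested the median was 0.0002 in Ctrl TFs. Between genotypes in 1% O2, DESeq2 called *Ogdh*, the first enzyme of the 2-oxoglutarate dehydrogenase complex, where edgeR gave a log2 difference of -0.61 (SE 0.15, adjusted p = 0.191).

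Transcription factors and coactivators known to act on *Pdk* genes were not called between O2 levels either. Of 12 listed, 10 were tested in the Ctrl and cKO libraries and 11 with gesicles. Between O2 levels both tools called 0, and an unadjusted p under 0.05 was found for 1 in Ctrl TFs (*Epas1*, against 16.1% of all genes), 3 under the label cKO (*Epas1*, *Esrra* and *Pparg*, against 19.8%) and 0 with gesicles (17.3%). Between genotypes in 20% O2, DESeq2 called *Pparg*, which drives fat cell differentiation, where edgeR gave a log2 difference of -1.01 (SE 0.26, adjusted p = 0.136). *Epas1*, which encodes HIF-2 alpha, had means of 8.24 CPM in normoxic and 4.47 CPM in hypoxic Ctrl TFs, a log2 difference of -0.88 (SE 0.37, adjusted p = 0.269, edgeR). *Ppara*, a receptor that drives *Pdk4* in liver and heart, was under 1 CPM on average in all groups, with a log2 difference of 0.86 in Ctrl TFs (SE 0.42, adjusted p = 0.345, edgeR). Its response to low O2 differed between the genotypes at an unadjusted p under 0.05 (edgeR), as for 2.32% of all genes, and was not called. The Ctrl value of *Ppara* thus does not stand for TFs labelled cKO.

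Among fatty acid and fasting genes that share regulators with *Pdk4*, edgeR called 1 of 12 tested in Ctrl TFs, against 1.88% of all genes. *Angptl4*, an inhibitor of lipoprotein lipase and a known hypoxia gene, went from 14.0 ± 13.6 to 73.6 ± 19.7 CPM (log2 fold change 2.40, SE 0.53, adjusted p = 0.0367, edgeR). Its log2 differences of 1.72 under the label cKO (adjusted p = 0.104) and 1.75 with gesicles (adjusted p = 0.0677) were not called in edgeR. Of these 12 genes DESeq2 called 0 under the label cKO and 1, *Angptl4*, with gesicles. An unadjusted p under 0.05 was found for 3 in Ctrl TFs (*Angptl4*, *Cpt1a* and *Plin2*, against 16.1% of all genes), for 3 under the label cKO (*Acadm*, *Angptl4* and *Hadha*, against 19.8%) and for 2 with gesicles (*Angptl4* and *Cpt2*, against 17.3%). *Cpt1a*, the carnitine palmitoyltransferase that admits fatty acids to mitochondria, had a log2 difference of 0.38 in Ctrl TFs (SE 0.17, adjusted p = 0.281, edgeR).

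The other members lie on chromosomes 11 (*Pdk2*, 95026258 to 95041354), X (*Pdk3*, 93764607 to 93832201), 6 (*Pdk4*, 5483351 to 5496309), 4 (*Pdp1*, 11958184 to 11966452) and 8 (*Pdp2*, 104591451 to 104599026). *Pdha1* is also on X (160122209 to 160138413), *Pdhb* is on 14 (8165996 to 8173025), *Dlat* on 9 (50634633 to 50659780) and *Dld* on 12 (31331277 to 31351453), all in GRCm38. *Pdk3* and *Pdha1* are X-linked and the sexes were unevenly split between genotypes. In normoxic Ctrl TFs the male library had 55.1 CPM of *Pdk3* against 53.8 and 47.0 CPM in the female ones, and 349 CPM of *Pdha1* against 333 and 354 CPM. The male library was also the highest for *Pdk3* in hypoxic Ctrl TFs and in both gesicle-treated groups, though these libraries may come from the same mouse. Under the label cKO the female library lay between the male ones at both O2 levels. The part of sex was not tested. Exons of *Pdha1* overlap *Map3k15* on the other strand, which had 3 to 49 counts per library, and the strand setting of the counting is not given in the sources used here.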

How the data were processed

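Poly-A RNA of 18 mouse TF libraries was sequenced with paired ends. The authors trimmed reads with cutadapt 4.8, mapped them to GRCm38 with STAR 2.7.8a, estimated counts per gene with RSEM 1.3.3 and deposited these estimated counts as whole numbers, without normalization. The 4 transgene rows were left out of all fits. Groups came from the labels. Labels and methods differ on the serum in the medium, which was not used.

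Counts were tested with edgeR 4.0.16 (genes kept by filterByExpr, library sizes scaled by TMM, groups as coefficients, quasi-likelihood F test). One fit held the 12 Ctrl and cKO libraries (15850 genes) and one all 18 for the gesicle comparisons (16174 genes). Calls needed a Benjamini-Hochberg adjusted p under 0.05 over all genes and a fold change of at least 1.5. SE is the log2 fold change over the square root of F. p-values measure the spread between these libraries. With 3 counts as the floor, the smallest CPM a library can show was 0.0579 to 0.437, for counting error only. All pairs of libraries differed beyond sampling noise. The fits were tested on simulated data.

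The alternatives were DESeq2 1.42.0 (with and without the replicate number as a block), RLE size factors, 2 other filters on low counts, the block in edgeR (also per culture), only the groups compared, all 18 libraries, thinned counts, offsets for GC content and length, *Xist* as a covariate, no fold minimum, and each library left out. After the data were seen, the principal transcript length was added. Deviations of libraries with the same number correlated between O2 levels in Ctrl TFs (0.271, 0.300 and 0.458) and between gesicle-treated and untreated Ctrl TFs (0.193 to 0.462), as one mouse per number would, while between O2 levels 2 of 3 lay under 0.1 in cKO and in gesicle-treated TFs. Gene positions and exon lengths came from GENCODE M21 (GRCm38), and promoters from RefSeq (GRCm38.p6), where *Pdp1* had no entry. R 4.3.3 and Python 3.11.15 were used.

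Members and gene lists were chosen with earlier results of these data known. All 10 members are named, with *Hif1a*, every gene of the pathway lists called by edgeR in at least 1 comparison, the 2 of each list that differed most between O2 levels in Ctrl TFs, and the 3 genes most like each called member. Listed genes named for an unadjusted p or a DESeq2 call alone, and markers named singly, were chosen after their values were seen.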

Additional observations from a re-analysis of the deposited data

How the results depend on the processing

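The number of members called moved under 3 alternatives. For 1% against 20% O2 in cKO TFs it ranged from 1 to 2 with 1 library left out (2 without the second cKO library in 20% O2, which added *Pdp2*). For cKO against Ctrl TFs in 1% O2 it was 1 with DESeq2 (*Pdk1*), and with gesicles in 1% against 20% O2 it was 2 with DESeq2 and the replicate block (*Pdk4* added). For these 3 alternatives the share of all genes called is not given here, and nothing is read from the added calls. The replicate block in edgeR changed no call of a member. Over all alternatives the *Pdk1* log2 fold change with low O2 ran from 2.58 to 2.80 in Ctrl TFs, from 1.85 to 2.22 in cKO TFs and from 1.98 to 2.27 with gesicles, and it was called each time. With the replicate block the cKO against Ctrl difference of *Pdk1* in 1% O2 was -0.64 (adjusted p = 0.257, edgeR), and with offsets for GC content and length it was -0.39 (adjusted p = 0.252, edgeR). Over its alternatives that adjusted p ran from 0.047 to 0.459. The cause of these shifts was not tested. Of the 35 differences of members beyond 1 SE, 0 of 640 alternative values changed sign. Of the 55 within 1 SE of 0, 123 of 1030 did, and none was called. Differences under 1.5-fold such as those of *Pdk3* and *Dlat* are by definition not called, and the lowest member, *Pdp2*, is limited by depth in the library with 6857558 counts.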
